A study of Mus musculus with 6 samples.

Results

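Heparan sulfate is a long, negatively charged sugar chain that cells attach to a small set of core proteins and display on their surface and in the surrounding matrix. The EXT enzymes build the chain, an N-sulfotransferase and an epimerase modify its sugars, and O-sulfotransferases then add sulfate at fixed positions. The pattern of sulfate groups sets which growth factors and chemokines the chain binds, and in epithelial tumours these chains act as co-receptors for FGF, EGF-family and other heparin-binding ligands. The 10 genes described here cover this route: the polymerase subunits Ext1 and Ext2, the modifying enzymes Ndst1, Glce, Hs2st1 and Hs6st1, the extracellular sulfatase Sulf2, and the core proteins Sdc1, Sdc4 and Gpc1.

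The 10 genes were taken as a list by symbol, and each matched 1 of the 28418 gene identifiers in every deposited table. They were measured by poly(A) RNA sequencing of 4T1, a line from a mouse mammary carcinoma that serves as a triple-negative breast cancer model. There were 3 libraries of 4T1 cells kept in 100 nM PFOS (perfluorooctane sulfonate, a fluorinated surfactant that persists in the environment) for 35 passages, and 3 of 4T1 cells kept without it (0 nM) for the same 35 passages. Both groups are the same single line. The labels leave unsaid whether the libraries of a group are separate cultures, and the p-values below then cover the spread between these libraries only, which may be technical. The members were listed by their role and chosen by a reader of earlier results from these libraries, among them the FPKM and low p-value of Hs2st1 at 100 nM against 0 nM. The differences and p-values of the 10 genes below are therefore a description.

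Each deposited value is an FPKM, a fragment number divided by the length of the transcript and by the size of the library, so levels of different genes can be set side by side. Library sums lay between 306716 and 309381 FPKM, and the depth behind them is unknown. The line showed its epithelial markers (6 of 6, among them Cdh1, Epcam and Krt8), with summed levels of 751 to 802 FPKM at 100 nM and 714 to 715 FPKM at 0 nM. Of 10 leukocyte markers, 7 passed 1 FPKM in some library. Their sums were 140, 269 and 303 FPKM in replicates 1, 2 and 3 at 100 nM, against 139 to 179 FPKM at 0 nM. Most of each sum was the single gene Lyz2, at 111, 240 and 185 FPKM at 100 nM and 103 to 147 FPKM at 0 nM. Replicate 3 at 100 nM also held 14.94 FPKM of Gzmb, 65.16 of Cd14 and 1.31 of Ptprc. The other 5 libraries held at most 0.05, 24.14 and 0.23 FPKM of these genes. The T cell and cytotoxic genes Cd3e, Cd3g and Nkg7 were listed at 0 in 5 libraries, whereas replicate 3 at 100 nM held 0.66, 1.05 and 2.58 FPKM of them. All 4 endothelial markers stayed under 1 FPKM, and of 6 fibroblast markers 3 passed 1 FPKM in some library, with sums of 5.06 to 8.32 FPKM at 100 nM and 4.83 to 5.00 FPKM at 0 nM. The part of these cells or transcripts in the results was not tested, and values without replicate 3 at 100 nM are given where they bear on a result.

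A gene was tested if its mean over the 6 libraries reached 1 FPKM, and called where its adjusted p (Benjamini-Hochberg) was under 0.05 in limma, fitted to log2(FPKM + 1) of all 11741 such genes, 100 nM minus 0 nM. In that fit 4.15% of genes were called, 1.69% higher and 2.46% lower at 100 nM. Of the 10 heparan sulfate genes, 9 were tested and 2 were called: Hs2st1 lower and Hs6st1 higher. The remaining 7 tested genes differed by at most 0.17 on the log2(FPKM + 1) scale, where a fold change of a low gene is understated. As these are bulk samples, fewer cells that express a gene and less RNA per cell cannot be told apart.

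The genes formed a steep order of levels. Sdc4, the most abundant, averaged 86.2 FPKM at 100 nM and 91.3 FPKM at 0 nM, and Sdc1 followed at 41.6 and 43.6 FPKM. At 100 nM the order then ran Gpc1, Hs2st1, Ext2, Ndst1, Hs6st1, Glce, Ext1 and Sulf2. At 0 nM it was the same except that Hs2st1 stood above Gpc1 and Ndst1 stood above Ext2. No neighbours in either order overlapped between libraries, so both exchanges of rank were seen in every library.

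**Figure D1:**
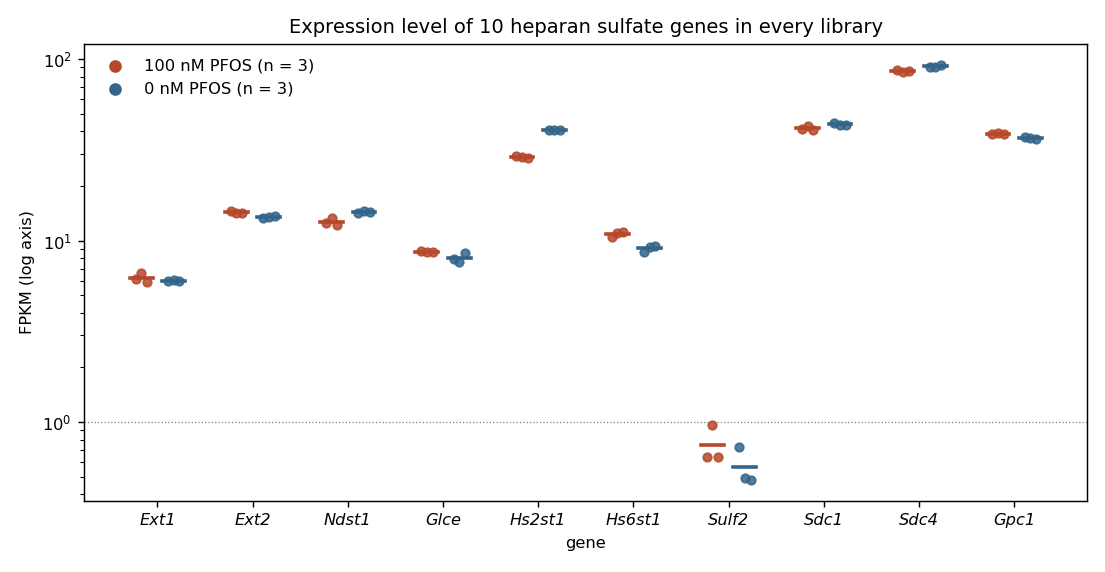
FPKM on a log axis for the 10 genes, with 1 point per library, a line at the mean of each group, 100 nM left of 0 nM for each gene, and a dotted line at the 1 FPKM needed for testing. Sdc4 stands highest at 86.2 FPKM (100 nM) and 91.3 FPKM (0 nM), and Sulf2 is the only gene below 1 FPKM in every library.

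The largest difference was in Hs2st1, which encodes the sulfotransferase that places sulfate on the 2-O position of iduronic acid (ENSMUSG00000040151, GRCm38 chromosome 3, 144429706 to 144570181, minus strand). It stood at 29.07, 28.83 and 28.64 FPKM at 100 nM, against 40.40, 40.45 and 40.42 FPKM at 0 nM. All 3 libraries at 100 nM lay below all 3 at 0 nM, and within each group the values hardly varied (SD 0.215 and 0.0252 FPKM, n = 3 each). The ratio of means was 0.714, and log2(FPKM + 1) differed by -0.47 ± 0.02 (SE), for a limma adjusted p of 0.000428. This difference was -0.47 without replicate 3 at 100 nM (limma adjusted p = 0.00198).

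Hs2st1 begins 123 bases from the start of Selenof, which encodes a selenoprotein of the endoplasmic reticulum and is transcribed in the opposite direction (GRCm38 chromosome 3, 144570304 to 144597680, plus strand). Selenof was the nearest called gene. It averaged 70.4 ± 1.77 FPKM at 100 nM and 99.5 ± 0.249 FPKM at 0 nM (SD, n = 3 each), which is -0.49 ± 0.02 (SE) in log2(FPKM + 1), and its limma adjusted p was 0.000602. The part of the sequence between these 2 called genes in their differences was not tested. The stretch between the RefSeq start of Hs2st1 and the GENCODE start of Selenof is shown for its position. It is given from RefSeq for GRCm38.p6, minus strand, 5′ to 3′ towards Hs2st1, at chr3:144570217-144570303, which lies in no annotated exon. Capitals mark a GC box (GGGCGG or its reverse complement CCGCCC), a motif of GC-rich promoters.
Hs2st1: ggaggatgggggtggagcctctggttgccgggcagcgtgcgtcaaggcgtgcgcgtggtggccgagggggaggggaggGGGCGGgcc

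Lower values around Hs2st1 were not limited to Selenof. Of 28 other tested genes within 2.5 Mb on either side, 22 had a lower mean at 100 nM, 13 were called lower and 1 was called higher, with a median difference of -0.20 on the log2(FPKM + 1) scale. Hs2st1 lay 0.27 below that median but within the range of the 13 neighbours called lower, from -0.20 (Ccn1) to -0.72 (Syde2). The part of this shared position in the difference of Hs2st1 was not tested. The transcripts of Hs2st1 share 0% of their 31-base words with other genes, so its reads are not split with a close copy, and the 2 intronic transcripts annotated inside it averaged 0.017 and 0.042 FPKM.

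Hs6st1, which encodes an enzyme adding sulfate at the 6-O position of glucosamine (ENSMUSG00000045216, GRCm38 chromosome 1, 36068400 to 36106446, plus strand), was the only member called higher. Its levels were 10.49, 10.94 and 11.13 FPKM at 100 nM, against 8.69, 9.16 and 9.30 FPKM at 0 nM. The groups did not overlap. The ratio of means was 1.20 and log2(FPKM + 1) differed by 0.24 ± 0.04 (SE), for a limma adjusted p of 0.0244. The call was lost when any 1 of the 6 libraries was left out, with limma adjusted p-values of 0.052 to 0.0935 and differences of 0.21 to 0.26. Without replicate 3 at 100 nM that p-value was 0.0627. Among 31 tested genes within 2.5 Mb, 0 were called and the median difference was 0.006. An antisense RNA gene covers 8.07% of its exonic bases, and whether strand was used in quantification is not given in the sources used here.

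The promoter of Hs6st1 is shown as the start of the called higher gene, for comparison with that of Hs2st1. It is given from RefSeq for GRCm38.p6, plus strand, 5′ to 3′, at chr1:36068150-36068399, the 250 bases before the start, with GC boxes on either strand in capitals.
Hs6st1: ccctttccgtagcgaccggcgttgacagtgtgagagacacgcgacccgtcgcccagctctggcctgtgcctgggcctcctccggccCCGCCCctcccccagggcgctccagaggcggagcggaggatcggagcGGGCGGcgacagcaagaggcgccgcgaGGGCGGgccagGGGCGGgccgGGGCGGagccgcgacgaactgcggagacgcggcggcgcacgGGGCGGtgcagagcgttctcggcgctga

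Hs6st1 held 6 GC boxes in this window and the full 250-base window of Hs2st1, which reaches into an exon of Selenof, held 1. Among members not called, Sdc4 held 4, Glce and Sdc1 held 3 each and Ext2 held 0. G and C made up 54.8% (Ext2) to 76.4% (Hs6st1) of the bases in the windows of these genes, against a median of 52.4% over all windows. The RefSeq table gave promoters for 7 of the 10 genes, and 6 of them held at least 1 GC box (Sulf2 in 1 of its 2 windows). Counted per window and not per gene, 32.7% of 32851 promoter windows of that length from all genes held at least 1. Ext2 was the exception, with no GC box and 1 E-box (CACGTG, in 6.0% of all windows). None of the 7 held the letters TGACTCA (an AP-1 site, in 4.5% of all windows) or GCGTGGGCG (an EGR1 site, in 0.5%), both searched on both strands. These matches describe letters in a window and say nothing of whether a factor binds there.

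Ndst1, the bifunctional enzyme that removes acetyl groups from glucosamine and replaces them with sulfate, lies on chromosome 18 (60684494 to 60748650, minus strand). It stood at 12.56, 13.34 and 12.12 FPKM at 100 nM, against 14.15, 14.58 and 14.40 FPKM at 0 nM. The groups did not overlap, but the adjusted p missed the threshold. In log2(FPKM + 1) the difference was -0.17 ± 0.04 (SE), its 95% interval ran from -0.26 to -0.08, and it had a limma adjusted p of 0.0628. It was called when only protein-coding genes were tested (limma adjusted p = 0.0459) and when a mean of 5 FPKM was required (0.0442). Both settings leave fewer genes to adjust over, and the part of this in the calls was not tested. Leaving out any 1 library gave no call (limma adjusted p = 0.0649 to 0.178). Without replicate 3 at 100 nM the difference of Ndst1 was -0.14 (limma adjusted p = 0.119). Of 20 tested neighbours within 2.5 Mb, 15 had a lower mean at 100 nM and 3 were called lower, with a median difference of -0.10. The gene body overlaps the ribosomal protein gene Rps14 on the other strand, without shared exonic bases. Rps14 averaged 175 FPKM at 100 nM and 188 FPKM at 0 nM and was not called (limma adjusted p = 0.203).

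The epimerase gene Glce, whose product turns glucuronic into iduronic acid and so makes the sugar that Hs2st1 acts on, stood at 8.77, 8.64 and 8.67 FPKM at 100 nM, against 7.96, 7.65 and 8.58 FPKM at 0 nM. The groups did not overlap, although replicate 3 at 0 nM lay just below the lowest value at 100 nM. In log2(FPKM + 1) the difference was 0.10 ± 0.04 (SE), its 95% interval ran from -0.0043 to 0.20, and it had a limma adjusted p of 0.258. It lies on chromosome 9 (62057248 to 62122655), where 26 of 32 tested neighbours within 2.5 Mb had a higher mean at 100 nM. The median difference of the 32 was 0.12, close to that of Glce itself. The 5 called higher (Anp32a, Fem1b, Rpl4, Map2k1 and Tipin) all began at higher coordinates than Glce. On the other side the nearest tested genes, Kif23, Rplp1, Tle3 and Uaca, differed by -0.02, 0.05, 0.04 and 0.009 and were not called.

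**Figure D2:**
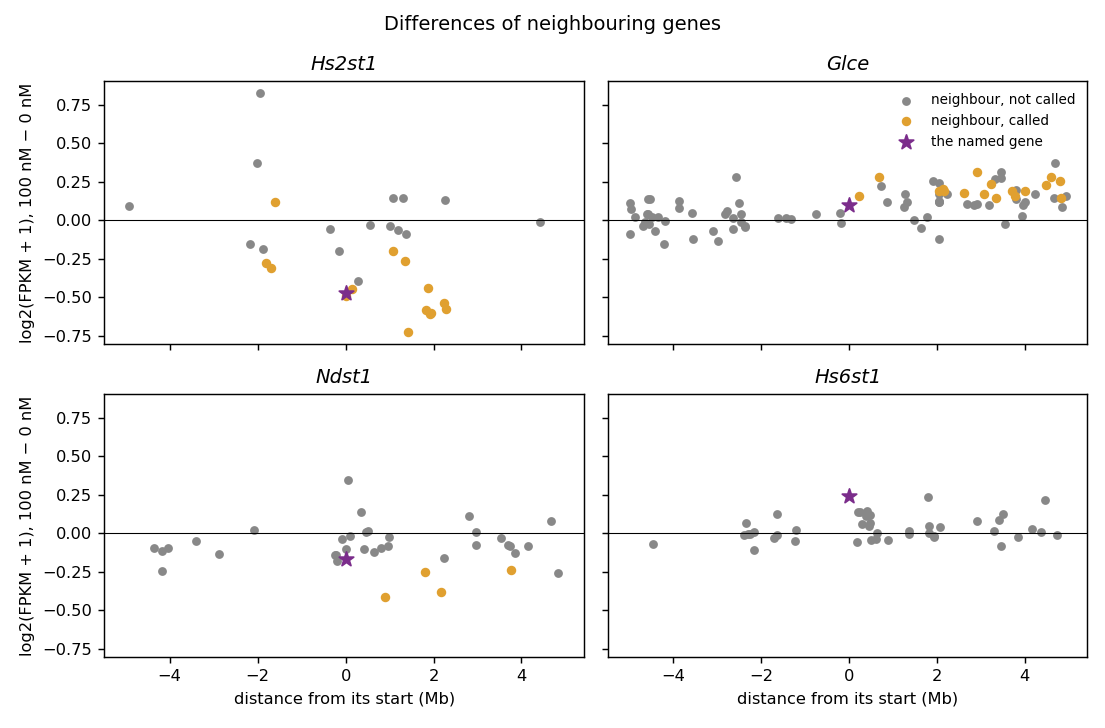
Difference in log2(FPKM + 1), 100 nM minus 0 nM, of tested genes within 5 Mb of the start of Hs2st1, Glce, Ndst1 and Hs6st1 (star), against distance along the chromosome in Mb; orange points were called at an adjusted p under 0.05. Hs2st1 at -0.47 stands among many lower genes, while Hs6st1 at 0.24 has no called gene within 2.5 Mb. Glce at 0.10 has called genes, all higher, only on the side of higher coordinates.

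The opposite directions of Hs2st1 and Hs6st1 changed the proportion between the transcripts of the enzymes. The FPKM of Hs6st1 was 0.361, 0.379 and 0.389 times that of Hs2st1 in the libraries at 100 nM, against 0.215, 0.226 and 0.230 times at 0 nM. Ndst1 was lower at 100 nM in FPKM, yet relative to Hs2st1 it was higher, at 0.432, 0.463 and 0.423 at 100 nM against 0.350, 0.360 and 0.356 at 0 nM. Neither ratio overlapped between groups. Both ratios rest on Hs2st1, whose difference was known when the genes were listed, and they are given with no test.

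Chain building differed little. Ext1 and Ext2 encode the subunits of the complex that polymerises the chain. Ext1 stood at 6.13, 6.59 and 5.93 FPKM at 100 nM, against 5.96, 6.07 and 5.96 FPKM at 0 nM. These groups overlapped, and the difference of 0.04 had a 95% interval of -0.06 to 0.14 on the log2(FPKM + 1) scale. Ext2 stood at 14.49, 14.21 and 14.21 FPKM at 100 nM, against 13.29, 13.46 and 13.68 FPKM at 0 nM. Its groups did not overlap, with a difference of 0.08 ± 0.03 (SE), a 95% interval of 0.02 to 0.14 and a limma adjusted p of 0.141. The ratio of Ext2 to Ext1 was 2.31 ± 0.130 at 100 nM and 2.25 ± 0.042 at 0 nM (SD, n = 3 each).

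Among the core proteins, the syndecans Sdc1 and Sdc4 span the membrane and Gpc1, a glypican, is held by a lipid anchor. Sdc1 stood at 41.36, 42.76 and 40.78 FPKM at 100 nM, against 44.36, 43.11 and 43.47 FPKM at 0 nM. Sdc4 stood at 87.20, 85.23 and 86.29 FPKM at 100 nM, against 90.38, 90.66 and 92.88 FPKM at 0 nM. Both had all libraries at 100 nM below all at 0 nM. The ratios of means were 0.954 for Sdc1 and 0.945 for Sdc4, and neither passed the test (limma adjusted p = 0.209 and 0.0806). Gpc1 differed the other way, at 38.75, 39.33 and 38.36 FPKM at 100 nM against 37.23, 36.88 and 36.35 FPKM at 0 nM. Its groups did not overlap, the ratio of means was 1.05 and the limma adjusted p was 0.118. The 95% intervals on the log2(FPKM + 1) scale were -0.13 to -0.0054 for Sdc1, -0.13 to -0.03 for Sdc4 and 0.02 to 0.13 for Gpc1. An annotated gene on the other strand, Ankmy1, covers 18.9% of the exonic bases of Gpc1 but averaged 0.005 FPKM.

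Sdc2 and Sdc3, the other syndecans, are set beside these after their values were seen. Sdc2 averaged 20.8 ± 1.23 FPKM at 100 nM and 18.5 ± 0.806 FPKM at 0 nM (SD, n = 3 each). Sdc3 averaged 19.4 ± 0.350 FPKM at 100 nM and 17.7 ± 0.318 FPKM at 0 nM (SD, n = 3 each). In both, all libraries at 100 nM lay above all at 0 nM, and neither passed the test (limma adjusted p = 0.126 for Sdc2 and 0.0576 for Sdc3). Sdc3 was called higher when only protein-coding genes were tested (limma adjusted p = 0.044) and when a mean of 5 FPKM was required (0.0426). It was not called with any 1 library left out (limma adjusted p = 0.109 to 0.172). Summed over the 4 syndecans, FPKM came to 168 ± 1.80 at 100 nM and 171 ± 1.68 at 0 nM (SD, n = 3 each), and these sums overlapped between groups. Sdc4 made up 50.7% to 51.9% of that sum at 100 nM and 52.6% to 53.9% at 0 nM.

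Sulf2, the extracellular enzyme that removes sulfate from the 6-O position, was the member under the filter. It stood at 0.64, 0.97 and 0.64 FPKM at 100 nM, against 0.73, 0.49 and 0.48 FPKM at 0 nM. The groups overlapped and the gene was not tested. Its partner Sulf1 was listed at 0 in 5 libraries and at 0.01 FPKM in replicate 3 at 0 nM. The gene Ncoa3 on the other strand, at 5.55 FPKM at 100 nM and 5.24 FPKM at 0 nM, covers 2.62% of the exonic bases of Sulf2.

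**Figure D3:**
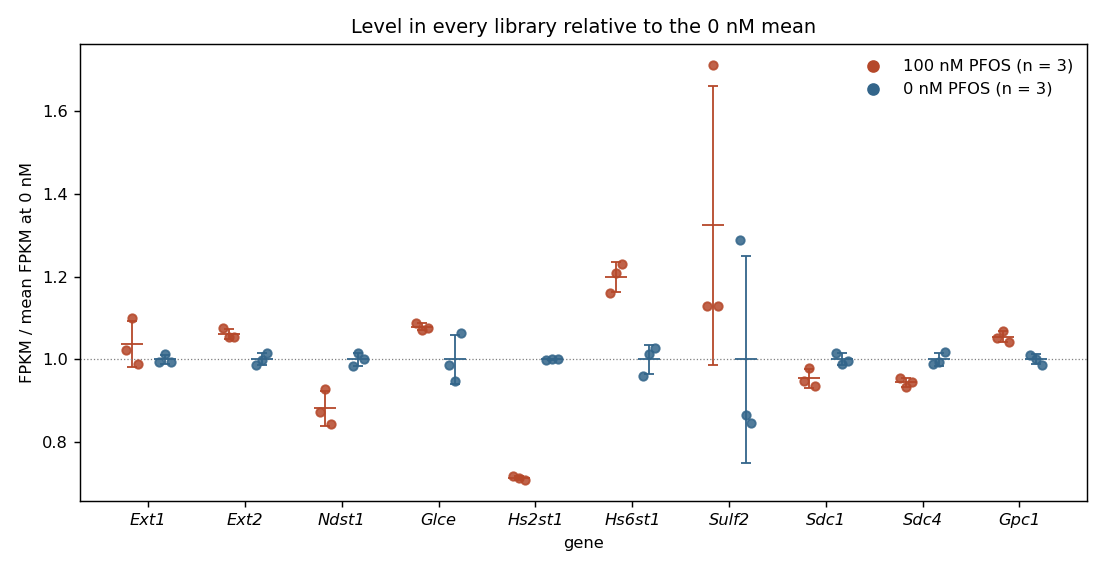
FPKM of each gene in each library divided by its mean at 0 nM, with bars at the mean and SD of the 3 libraries of a group and 100 nM left of 0 nM; the axis does not start at 0. Hs2st1 lies at a mean of 0.714 and Hs6st1 at 1.20 at 100 nM, Ext1 and Sulf2 overlap between groups, and Sulf2 has the widest spread.

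For 8 of the 9 tested members (all but Ext1), libraries at 100 nM and 0 nM occupied separate ranges, as they did for 26.9% of all 11741 tested genes. Means were higher at 100 nM for 5 members and lower for 4, with a median absolute difference of 0.08, beside 0.06 over all tested genes. As the list was chosen with results known, nothing is read from these counts. The 9 tested members shared at most 2.77% of their 31-base words with transcripts of other genes.

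The wider pathway was taken as 11 lists of 95 further genes, of which 90 had a row and 57 were tested. None rose and 5 fell: Areg, Hbegf, Fgfr2, Csgalnact1 and Sdcbp2, which is 8.77% of those tested, against 2.46% called lower among all genes. Sdc3 was called higher in addition with protein-coding genes only (6 called, 1 higher and 5 lower) and with a mean of at least 5 FPKM (4 called, 1 higher and 3 lower). An unadjusted p under 0.05, counted for each list below, was reached by 21 of the 57 and by 20.7% of all tested genes. The lists were drawn up by function but with earlier results of these data known, so nothing is read from these shares. Their median difference was 0.01, beside 0.005 over all tested genes. None of the 5 genes encodes an enzyme or core protein of heparan sulfate itself.

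The route into the chain held 0 called genes. Of the linkage genes, which build the short sugar stub on the core protein, 0 of 6 tested passed (1 at an unadjusted p under 0.05), with Xylt2 at 9.66 FPKM at 100 nM and 9.68 FPKM at 0 nM, B3gat3 at 7.92 and 8.40 FPKM, and B4galt7 at 7.24 and 7.82 FPKM. The linkage gene at an unadjusted p under 0.05 was Fam20b, a xylose kinase, at 6.10 FPKM at 100 nM and 6.59 FPKM at 0 nM. Of the other chain polymerising genes, 0 of 2 tested passed (0 unadjusted), with Extl3 at 16.8 FPKM at 100 nM and 16.6 FPKM at 0 nM, and Extl2 at 7.75 and 7.69 FPKM. Extl1 reached at most 0.21 FPKM. Of precursor synthesis and transport genes, 0 of 10 tested passed (2 unadjusted). Among these, the sulfate donor synthase Papss1 stood at 46.4 FPKM at 100 nM and 45.0 FPKM at 0 nM, the glucuronic acid precursor enzyme Ugdh at 20.0 and 21.5 FPKM, and the sulfate donor transporter Slc35b2 at 19.6 and 19.4 FPKM.

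The remaining modifying genes were mostly under the filter. Of 9 other sulfotransferases with a row, 8 were under the filter. They included every 3-O-sulfotransferase with a row, of which Hs3st1 was highest at 0.18 to 0.36 FPKM at 100 nM and 0.28 to 0.52 FPKM at 0 nM, and Hs6st2 and Hs6st3, at most 0.03 FPKM in any library. Ndst3 averaged 0.253 FPKM at 100 nM and 0.247 FPKM at 0 nM. Ndst2, a paralogue of Ndst1, was the exception at 7.85 FPKM at 100 nM and 8.40 FPKM at 0 nM, with groups that did not overlap and a limma adjusted p of 0.233. Hs2st1 and Hs6st1 were thus the only O-sulfotransferases of heparan sulfate with a row above 1 FPKM in these cells. Of the other extracellular editing genes, the heparanase gene Hpse was tested and not called (0 at an unadjusted p under 0.05), at 1.50 FPKM at 100 nM and 1.58 FPKM at 0 nM.

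Of other core proteins 0 of 8 tested passed (5 unadjusted). The collagen gene Col18a1 stood at 42.0 FPKM at 100 nM and 41.0 FPKM at 0 nM, agrin (Agrn) at 32.3 and 31.7 FPKM, and perlecan (Hspg2) at 31.1 and 29.6 FPKM. The glypican Gpc4 stood at 9.44 FPKM at 100 nM and 10.4 FPKM at 0 nM (limma adjusted p = 0.151) and the TGF-beta co-receptor Tgfbr3 at 1.56 and 2.05 FPKM (0.130), both named after their values were seen. Serglycin (Srgn), a proteoglycan of leukocyte granules also named after its values were seen, had 0.65, 0.53 and 9.14 FPKM in the 3 libraries at 100 nM, against 0.81, 2.48 and 2.34 FPKM at 0 nM. The library with 9.14 FPKM, replicate 3, is that with the T cell transcripts. Without it the difference of Srgn was -0.80 in place of 0.09 on the log2(FPKM + 1) scale. Of the lysosomal genes that break the chain down, 0 of 6 tested passed (2 unadjusted), with Gusb at 28.1 FPKM at 100 nM and 26.3 FPKM at 0 nM and Hgsnat at 11.98 and 12.04 FPKM.

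Chondroitin sulfate chains start from the same linkage sugars. Of 11 tested genes of that branch 1 was called lower (3 at an unadjusted p under 0.05). Csgalnact1, whose product starts the chondroitin chain, averaged 4.38 ± 0.347 FPKM at 100 nM and 5.75 ± 0.263 FPKM at 0 nM (SD, n = 3 each), with a difference of -0.33 ± 0.06 (SE) and a limma adjusted p of 0.035. In 7 of 15 alternatives the gene was not called, 5 of them the fits that left out a library other than replicate 1 at 100 nM (limma adjusted p = 0.0836 to 0.114). Chpf stood at 15.0 FPKM at 100 nM and 15.7 FPKM at 0 nM, Chsy1 at 13.1 and 14.0 FPKM, and the dermatan sulfotransferase gene Chst14 at 8.09 and 8.18 FPKM.

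Among ligands and receptors that use heparan sulfate, 3 were called lower. Areg, the amphiregulin gene, stood at 12.72, 11.73 and 12.10 FPKM at 100 nM, against 16.61, 17.43 and 17.55 FPKM at 0 nM, and differed by -0.47 ± 0.04 (SE) in log2(FPKM + 1), for a limma adjusted p of 0.00323. Hbegf, which encodes heparin-binding EGF-like growth factor, stood at 17.27, 17.97 and 16.88 FPKM at 100 nM, against 22.31, 23.01 and 21.05 FPKM at 0 nM (difference -0.33 ± 0.04 (SE), limma adjusted p = 0.0115). Both are ligands of the EGF receptor family that bind heparan sulfate. Without replicate 1 at 0 nM the limma adjusted p of Hbegf was 0.0579. Hbegf lies on chromosome 18 (36504927 to 36515805), where 49 of 57 tested neighbours within 2.5 Mb had a lower mean at 100 nM and 9 were called lower, with a median difference of -0.10. Around Areg on chromosome 5 (91139599 to 91148432), 2 of 33 neighbours were called lower and the median difference was 0.006. In this ligand list 2 of 4 tested were called lower (2 unadjusted), and the angiogenic factor Vegfa stood at 14.2 FPKM at 100 nM and 14.1 FPKM at 0 nM.

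The FGF receptor gene Fgfr2 stood at 4.03, 3.84 and 3.73 FPKM at 100 nM, against 4.82, 5.12 and 5.06 FPKM at 0 nM, with a difference of -0.30 ± 0.04 (SE) and a limma adjusted p of 0.0171. No library at 100 nM reached the lowest at 0 nM. The call was lost without replicate 2 at 100 nM or any library at 0 nM (limma adjusted p = 0.0526 to 0.079). The annotated span of Fgfr2 runs into Ctbp2 and shares 3.04% of its exonic bases with it. Fgfr2 was the gene called among 3 tested of the FGF list (3 at an unadjusted p under 0.05). Fgfr3 stood at 2.02 FPKM at 100 nM and 2.36 FPKM at 0 nM and the FGF carrier Fgfbp1 at 3.85 and 3.22 FPKM, neither called, and Fgfr1, Fgfr4, Fgf1, Fgf2, Fgf7 and Fgf10 were under the filter.

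Of 5 syndecan partners 1 was called lower (2 at an unadjusted p under 0.05). Sdcbp2, encoding syntenin-2, a PDZ protein related to the adaptor that binds syndecan tails, averaged 3.60 ± 0.320 FPKM at 100 nM and 5.23 ± 0.398 FPKM at 0 nM (SD, n = 3 each), with a difference of -0.44 ± 0.07 (SE) and a limma adjusted p of 0.0251. Of the 14 alternatives in which it was tested, 7 did not call it, and 5 of those were the fits that left out a library other than replicate 1 at 100 nM (limma adjusted p = 0.0582 to 0.0935). That adaptor itself, syntenin-1 (Sdcbp), stood at 20.3 FPKM at 100 nM and 22.4 FPKM at 0 nM, with groups that did not overlap and a limma adjusted p of 0.0794. Pdcd6ip, which joins syntenin to vesicle budding, stood at 59.3 FPKM at 100 nM and 57.9 FPKM at 0 nM.

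**Figure D4:**
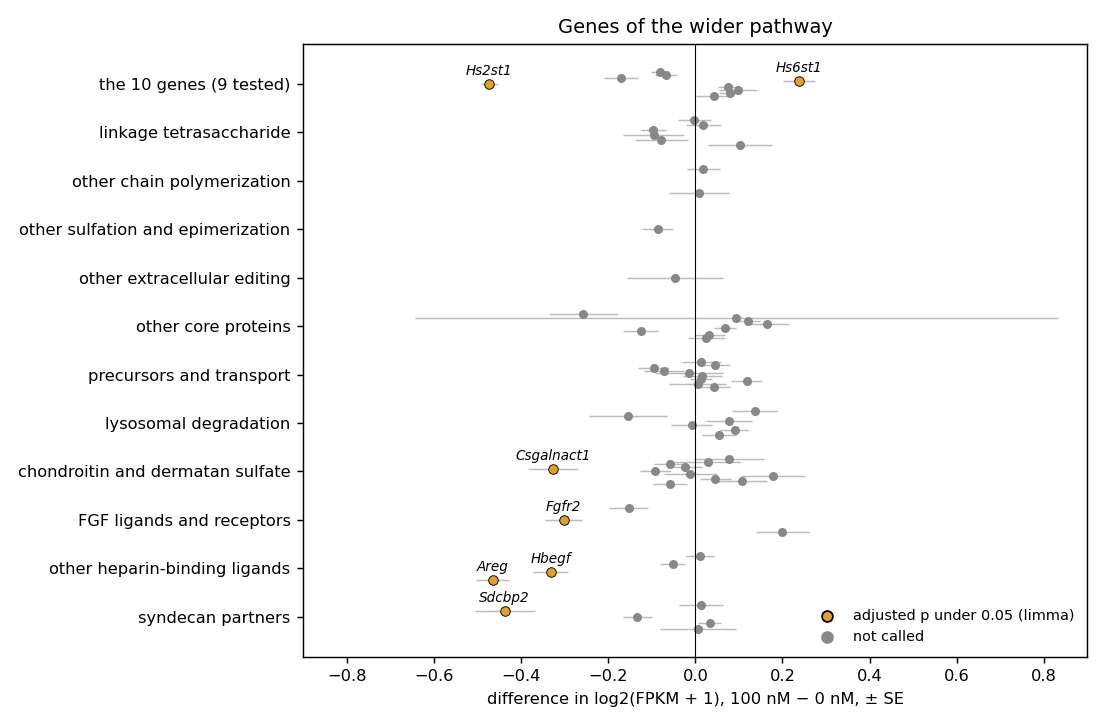
Difference in log2(FPKM + 1), 100 nM minus 0 nM, with its SE, for every tested gene of the 10 (top) and of 11 further lists; orange points were called by limma at an adjusted p under 0.05. Called genes outside the 10 (Csgalnact1, Fgfr2, Areg, Hbegf and Sdcbp2) all lie below 0, and no list of heparan sulfate enzymes or core proteins other than the 10 holds a called gene.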

How the data were processed

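Poly(A) RNA of 6 libraries (3 at 100 nM and 3 at 0 nM PFOS) was read in pairs from dUTP-marked libraries, per the labels' protocols. The authors deposited FPKM per gene to 2 decimals. The tools listed, per the submitters' processing notes, are fastp, HISAT2 and StringTie, and the builds listed are mm10 and GRCh38. Their versions, and what GRCh38 served for, are not stated there. Identifiers are mouse: 28350 of 28418 are in GENCODE M21 (GRCm38), and the 10 members have the same coordinates there. In low genes 24.0% to 26.5% of values lay within 0.1 of a whole multiple of the gene's lowest value. This share counts values just above the lowest and has no chance level beside it, so it cannot show whether read steps exist. Reads were not recovered and depth is unknown.

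limma 3.58.1 (R 4.3.3) with a variance trend was fitted to log2(FPKM + 1), two-sided, for genes whose mean reached 1 FPKM. The fit was also run on simulated data, with results not given here. Their noise was drawn separately for each gene and library, so differences shared by many genes of a library were not covered. The members and lists were chosen with earlier results of these data known. Named genes are the members, every called list gene, the 3 highest by mean FPKM in each list and the nearest called gene within 1 Mb of a called member; exceptions are stated, and a gene the rule names is not reported here. Neighbours were tested genes whose midpoints lay within 2.5 Mb. Promoters are RefSeq's, cut to the 250 bases before the start. Alternatives (15) covered pseudocount, filter, scaling, moderation, pairing, gene type and each library left out. Other steps ran in Python 3.11.15 with pandas 2.3.3 and matplotlib 3.10.9.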

Additional observations from a re-analysis of the deposited data

How the results depend on the processing

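Over 15 alternatives for each of the 9 tested members, 0 of 135 reversed a direction, 8 ended the call of Hs6st1 and 2 gave a call to Ndst1. Hs2st1 was called in all 15 (limma adjusted p = 0.000168 to 0.0213). The members called numbered 2, and 1 with no filter on low values, 1 with the replicate number as a block and 1 without any single library (1 to 1). The further pathway genes called numbered 5, and 2 with no filter, 1 with the block and 1 to 5 without a library; it was 6 with protein-coding genes only (Sdc3 added, higher) and 6 with a constant prior variance (Fgfr3 added, lower), and 4 with a mean of at least 5 FPKM (Sdc3 among them, higher). All genes called numbered 487, and 204 with no filter, 294 with a constant prior variance, 58 with the block and 122 to 290 without a library, with the highest of these without replicate 3 at 100 nM. The unfiltered test adjusts over 26956 genes. The causes of these lower counts were not tested. Samples with the same replicate number did not deviate together (r = -0.053 to 0.007 across genes). In these deviations from the group means, every sample at 100 nM correlated better with another number at 0 nM than with its own. The pairing block thus rests on a shared number only. No scaling moved the median difference of all genes beyond 0.006.

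Directions that turned belonged to uncalled genes. Xylt2 was 0.00093 after quantile normalization, and Srgn was -0.13 with a pseudocount of 0.1. Without 1 library, differences ran from -0.018 to 0.026 for Xylt2, -0.0495 to 0.0595 for Extl2, -0.011 to 0.042 for Extl3, -0.135 to 0.025 for Hpse, -0.0013 to 0.073 for Agrn, -0.80 to 0.57 for Srgn, -0.0545 to 0.0325 for Hgsnat, -0.0499 to 0.0551 for Chst14 and -0.0197 to 0.0263 for Vegfa. Areg lost its call with the block (limma adjusted p = 0.0506). Depth is unknown, so values under 1 FPKM such as those of Sulf2 carry an error known only from the replicates.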
